A study of Mus musculus with 34 samples.

Results

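Binding of the transcription factor BATF was compared between regulatory T (Treg) cells with the R397W mutation of Foxp3 and conventional CD4 T (Tconv) cells, over all 9973 peaks of a deposited table of chromatin immunoprecipitation sequencing (ChIP-seq). The comparison takes in 2 R397W Treg and 2 Tconv libraries, 4 of the 34 samples of the series. R397W Treg cells were CD4+hCD2+GFP- cells of Foxp3R397W-IRES-hCD2/Foxp3-IRES-GFP mice. Tconv cells were CD4+hCD2- cells of Foxp3-IRES-hCD2 mice, from a different experiment. Both wild-type Treg groups of the same table are used as landmarks, with 2 libraries each. Control Treg cells, from the experiment of the R397W cells, were CD4+hCD2+GFP- cells of Foxp3WT-IRES-hCD2/Foxp3-IRES-GFP mice. Earlier Treg cells, from the experiment of the Tconv cells, were CD4+hCD2+ cells of Foxp3-IRES-hCD2 mice. All mice were C57BL6/J, and the cells were sorted fresh from lymph nodes and spleen and precipitated with an antibody to BATF, clone D7C5. Ages and any pooling of animals are not given in the sources used here.

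Foxp3 is the forkhead transcription factor that defines the Treg lineage, and R397W lies in its DNA-binding forkhead domain. The Foxp3 gene is on the X chromosome, and a cell with hCD2 and no GFP uses the hCD2-marked allele, so the R397W hosts also hold Treg cells with wild-type Foxp3. BATF is an AP-1 factor that pairs with JUN proteins, binds with IRF4 at composite sites, and is needed by effector Treg cells in tissues. The comparison addresses how much of the Treg type of BATF binding is present in cells whose Foxp3 is mutant.

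The values are reads per peak divided by a scale factor per library, so that 1 read weighs more in a shallower library. Reads in peaks numbered 265351 and 655609 in the R397W libraries, 312181 and 144319 in the control libraries, 789224 and 701127 in the earlier Treg libraries, and 616212 and 1009580 in the Tconv libraries. In a principal component analysis of the log2 values the first component held 66.9% of the variance and placed the R397W libraries at 13.1 and 8.53. The control libraries stood at -57.2 and -72.5 on it, the earlier Treg libraries at -43.1 and -33.5, and the Tconv libraries at 86.0 and 98.7. On this component the R397W libraries thus lay between the wild-type Treg libraries and the Tconv libraries. On the second component, with 9.37% of the variance, they stood apart from the rest and from each other, at 53.1 and 16.8, and the other 6 libraries lay between -17.5 and -4.45. The peak at Eif2s3y, on the Y chromosome, had 0 reads in all 4 R397W and control libraries, against values of 27.4 and 33.5 in earlier Treg cells and 37.3 and 33.8 in Tconv cells. The experiments therefore differ in more than Foxp3, and in the direct comparison experiment and cell type cannot be told apart. A second fit took experiment as a term, which assumes that the control and earlier Treg groups differ by experiment only.

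**Figure D1:**
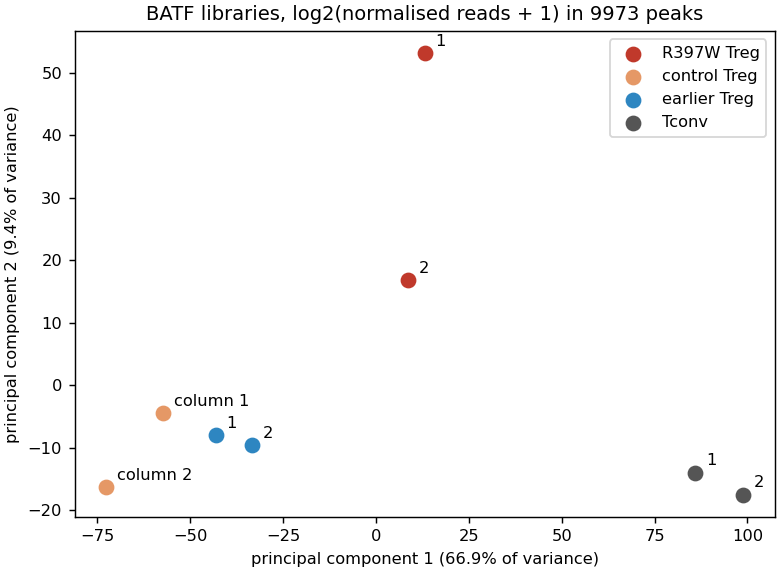
Position of each of the 8 BATF libraries on the first and second principal components of the log2 values over 9973 peaks, which hold 66.9% and 9.37% of the variance. On the first component the R397W libraries lie at 13.1 and 8.53, between the wild-type Treg libraries and the Tconv libraries, and on the second at 53.1 and 16.8, above the other 6.

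Binding measured here is summarised at positions along the genome, so the promoters that show both directions of change are given first as sequence. The following windows, of RefSeq build GRCm38.p6, run from 250 bases before to 50 bases after a gene start, 5′ to 3′ along the gene. P2ry10, a receptor gene of lymphoid cells, and Gm46272 are shown because a peak that rose lies on them and they hold the AP-1 motif TGANTCA, printed in capitals. Il1r2, the decoy receptor for interleukin-1, is shown as a window with a risen peak and no such motif. Cdca8, which encodes a subunit of the chromosomal passenger complex of dividing cells, is shown for a peak that fell.
P2ry10, chrX:107088242-107088541, strand +: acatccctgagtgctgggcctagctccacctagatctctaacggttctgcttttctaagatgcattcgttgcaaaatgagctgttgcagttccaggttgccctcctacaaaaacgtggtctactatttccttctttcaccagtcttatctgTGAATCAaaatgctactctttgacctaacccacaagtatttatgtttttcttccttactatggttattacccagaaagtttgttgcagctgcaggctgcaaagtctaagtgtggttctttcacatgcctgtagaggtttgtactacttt
Gm46272, chr11:20740382-20740681, strand +: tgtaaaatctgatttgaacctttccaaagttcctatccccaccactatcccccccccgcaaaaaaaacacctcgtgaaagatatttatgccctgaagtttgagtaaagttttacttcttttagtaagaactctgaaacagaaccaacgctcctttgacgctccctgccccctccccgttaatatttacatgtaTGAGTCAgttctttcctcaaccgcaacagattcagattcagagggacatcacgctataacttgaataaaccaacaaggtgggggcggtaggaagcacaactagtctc
Il1r2, chr1:40085843-40086142, strand +: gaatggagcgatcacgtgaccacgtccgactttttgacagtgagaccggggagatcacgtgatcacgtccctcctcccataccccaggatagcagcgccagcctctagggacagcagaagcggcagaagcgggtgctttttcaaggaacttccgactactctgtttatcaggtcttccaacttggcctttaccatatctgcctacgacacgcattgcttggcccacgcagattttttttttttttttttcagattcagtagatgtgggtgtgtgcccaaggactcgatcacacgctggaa
Cdca8, chr4:124936868-124937167, strand -: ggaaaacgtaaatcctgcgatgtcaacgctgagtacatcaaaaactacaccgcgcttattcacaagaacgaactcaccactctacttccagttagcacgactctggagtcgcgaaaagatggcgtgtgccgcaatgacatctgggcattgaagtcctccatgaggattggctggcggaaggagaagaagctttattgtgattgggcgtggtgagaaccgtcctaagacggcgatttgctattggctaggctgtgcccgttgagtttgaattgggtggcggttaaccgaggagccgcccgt

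The motif TGANTCA, searched on both strands, was in 2565 of 32851 such windows of all genes (7.81%) and in 161 of the 3696 windows that overlapped a BATF peak (4.36%). It was in 3 of the 33 windows with a risen peak (9.09%), some of which share a peak, and in 0 of the 51 windows with a fallen peak. The related spacing TGANNTCA was in 7 of the 33 windows with a risen peak (21.2%) and in 1 of the 51 with a fallen peak (1.96%), against 14.1% of all windows and 10.4% of those with a BATF peak. A match is a description of the letters in the window, not a site of binding. The match in P2ry10 was 18 bp from the peak's centre, and the peak had 44.5 and 38.8 in R397W Treg cells against 16.2 and 14.5 in Tconv cells (log2 difference 1.38, adjusted p = 0.021, limma). The peak on Gm46272 had 37.6 and 31.9 in R397W Treg cells against 14.8 and 8.35 in Tconv cells (log2 difference 1.55, adjusted p = 0.0109, limma). The peak on Il1r2 had 30.8 and 9.70 in R397W Treg cells against 3.52 and 5.71 in Tconv cells (log2 difference 1.74, adjusted p = 0.0354, limma). At all 3 the R397W libraries lay above the Tconv libraries.

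Over these 9973 peaks, BATF binding in R397W Treg cells differed from that in Tconv cells mostly by gains. The peaks come from a set in which Treg libraries outnumber Tconv libraries. Whether that set favours sites of Treg cells was not tested. Of the 9973 peaks, 1205 were higher in R397W Treg cells (12.1%) and 95 were lower (0.953%), at an adjusted p under 0.05 by limma with Benjamini-Hochberg adjustment over all peaks. The median log2 difference was 2.04 over the peaks that rose, which were nearest to 798 genes, and -1.34 over those that fell, nearest to 91 genes. Over all peaks it was 0.01, and the median standard error of a log2 difference was 0.38. With experiment as a term 222 peaks were higher (2.23%) and 7 were lower (0.0702%), together 229 (2.3%), with a median standard error of 0.54, and all 222 were among the 1205. In these bulk samples fewer cells of a type and less binding per cell cannot be told apart. The count of falls rested on single Tconv libraries, being 13 without Tconv library 1 and 4 without Tconv library 2, and it was 193 without R397W library 2. The count of 222 was 4 without earlier Treg library 1, 57 without earlier Treg library 2, 57 without R397W library 2, and 109 without R397W library 1. It was 72 and 122 without the first and the second control column.

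**Figure D2:**
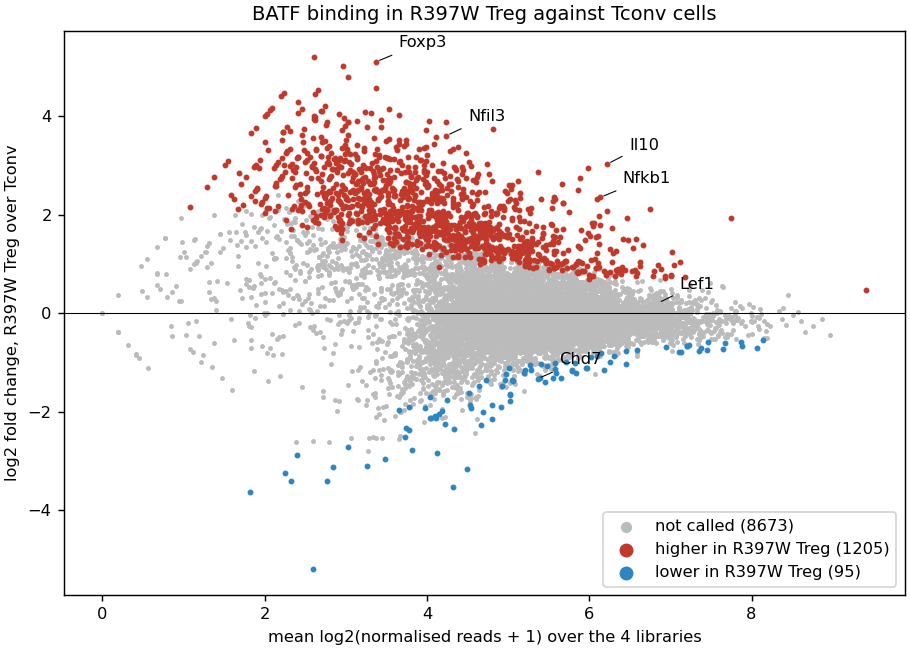
Log2 difference of R397W Treg minus Tconv against the mean log2 value, with a point for each peak. The 1205 peaks that rose and the 95 that fell are in their own colours. Most coloured points lie above 0.

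The same libraries place R397W binding against the wild-type landmarks. Against Tconv cells, 2376 peaks were higher in control Treg cells (23.8%) and 1017 lower (10.2%), and 1977 were higher in earlier Treg cells (19.8%) and 482 lower (4.83%). These 3 comparisons share the Tconv libraries. Leaving out a Tconv library moved the counts of falls most, to 409 and 316 in control Treg and to 182 and 105 in earlier Treg cells without Tconv library 1 and 2. The earlier Treg falls numbered 201 and 211 without the first and the second earlier Treg library, and the control falls 675 without control column 2. R397W Treg cells themselves were lower than control Treg cells at 795 peaks (7.97%) and higher at 219 (2.2%), within 1 experiment. The count of 795 was 74 without control column 2, 345 without R397W library 1 and 534 without earlier Treg library 1, and that of 219 ranged from 36 to 410 as single libraries were left out, lowest without R397W library 1 and highest without control column 1. The 2 wild-type Treg groups differed at 1 peak (0.01%), the Eif2s3y peak, with 866 peaks at an unadjusted p under 0.05. Without control column 1 that count was 45, and it was 0 without control column 2 or any one of the earlier Treg and Tconv libraries.

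The following sets of peaks were chosen by calls on the same libraries whose medians are given. The order of the groups within each set is therefore partly fixed by that choice and is a description only. Over the 1925 peaks that were higher than Tconv in both wild-type Treg groups, the R397W medians lay part of the way between. The medians of the group means were 26 in R397W Treg cells, 57.2 in control Treg cells, 42.3 in earlier Treg cells and 7.17 in Tconv cells. The median log2 difference of R397W Treg from Tconv cells was 1.55 there, and that from control Treg cells was -1.15. Of these 1925 peaks, 680 were lower in R397W than in control Treg cells, with medians of 19.2 in R397W, 70.7 in control, 49.1 in earlier Treg and 6.42 in Tconv cells. The 222 peaks higher than Tconv in both fits had medians of 47.6 in R397W, 86.6 in control, 71.7 in earlier Treg and 5.72 in Tconv cells. The 983 peaks that rose in the direct fit alone had 30.6, 59.8, 42.0 and 7.30 in the same order of groups. At 314 peaks R397W Treg cells were at once higher than Tconv and lower than control Treg cells, with medians of 29.5 in R397W, 98.3 in control, 66.2 in earlier Treg and 6.99 in Tconv cells. At 4 peaks, near Hbs1l, Cog6, Pou2f2 and Pafah1b2, they were higher than both Tconv and control Treg cells.

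At the Foxp3 gene itself, a BATF peak within the gene body at chrX:7583904-7584304 was present in the cells with mutant Foxp3. Its values were 42.7 and 83.9 in R397W Treg cells, 105 and 96.8 in control Treg cells, 66.1 and 66.3 in earlier Treg cells, and 2.11 and 0 in Tconv cells. All Treg libraries were far above both Tconv libraries. The peak held 146 reads in R397W Treg and 3 in Tconv cells, a ratio of 88.7 between the reads summed over each group and divided by its summed depth factors (95% interval 29.8 to 435, counting error only), with an adjusted p of 4.10e-06 by limma and of 0.00331 with experiment as a term. The difference of R397W from control Treg cells, a log2 difference of -0.74, did not pass the test (adjusted p = 0.348, limma).

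Over the gene lists of T cells together, 289 peaks, limma called 87 higher in R397W Treg than in Tconv cells and 0 lower, where the shares of all peaks were 12.1% higher and 0.953% lower. By edgeR 3 were lower and by DESeq2 0, and 7 falls reached an unadjusted p under 0.05 by limma. Among 18 genes listed as the Treg core, 12 had a peak, and 17 of their 27 peaks (63.0%, against 12.1% of all peaks) were higher in R397W Treg than in Tconv cells and 0 lower, with a median log2 difference of 1.5 against 0.01 over all peaks. With experiment as a term 3 of the 27 peaks were higher (11.1%, against 2.23% of all peaks). Tnfrsf9, the costimulatory receptor 4-1BB, had 2 of 2 peaks higher, and Il2rb, the interleukin-2 receptor beta chain, had 2 of 3. Ikzf2 encodes Helios, a zinc-finger factor of Treg cells, and its peak at chr1:69752733-69753133, 65582 bp from the gene, had 22.2 and 35.3 in R397W Treg, 74.0 and 72.6 in control Treg, 45.2 and 44.0 in earlier Treg, and 2.11 and 5.27 in Tconv cells. The R397W values lay between those of both wild-type Treg groups and Tconv cells, with no overlap. The log2 difference from Tconv cells was 2.72 (SE 0.45, adjusted p = 3.52e-04, limma), and the test with experiment as a term gave an adjusted p of 0.124. Ctla4, the inhibitory receptor for CD80 and CD86, had a single peak at chr1:60936939-60937339 with 18.8 and 20.1 in R397W Treg, 44.7 and 38.0 in control Treg, 24.4 and 34.8 in earlier Treg, and 5.63 and 6.59 in Tconv cells. That difference was 1.53 on the log2 scale (SE 0.46, adjusted p = 0.0326, limma), and it missed the threshold with experiment as a term (adjusted p = 0.551) and in 10 of 17 alternatives in all, among them leaving out any library of either group (adjusted p 0.0766 to 0.126).

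Nrp1, a co-receptor for semaphorins that marks most thymus-derived Treg cells, stood between Tconv and wild-type Treg cells. Its highest peak, at chr8:128549745-128550145 and 44469 bp from the gene, had 94.0 and 67.9 in R397W Treg, 285 and 349 in control Treg, 286 and 196 in earlier Treg, and 38.7 and 39.6 in Tconv cells. The R397W mean was 81.0 ± 18.5 and the Tconv mean 39.1 ± 0.578 (SD of 2 libraries in each group). R397W Treg cells were thus 2.02-fold above Tconv cells (log2 difference 1.01, SE 0.23, adjusted p = 0.00556, limma) and 3.91-fold below control Treg cells (log2 difference -1.97, adjusted p = 2.81e-04, limma). The rise over Tconv was not called without R397W library 1 (adjusted p = 0.0924), with no trend of the spread, or with experiment as a term (log2 difference 0.60, adjusted p = 0.474). All folds are ratios of value + 1. Of the 4 Nrp1 peaks, 3 were higher than Tconv, 0 of them with experiment as a term, and 3 were lower than control.

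Of 24 genes listed for effector Treg cells 18 had a peak and 10 had a peak that rose in R397W Treg over Tconv cells. Of their 58 peaks 25 were higher (43.1%, against 12.1% of all peaks) and 0 lower, with a median log2 difference of 1.34. In control Treg cells 48 were higher than in Tconv cells (82.8%, against 23.8% of all peaks). In earlier Treg cells 41 were higher (70.7%, against 19.8% of all peaks). Of the 58 peaks 8 were higher with experiment as a term (13.8%, against 2.23% of all peaks). In R397W Treg cells 16 of the 58 were lower than in control Treg cells, beside 7.97% of all peaks. Il10 encodes the suppressive cytokine interleukin-10. Its highest peak, at chr1:131010499-131010899 and 9146 bp from the gene, had 164 and 276 in R397W Treg, 284 and 284 in control Treg, 302 and 221 in earlier Treg, and 48.6 and 12.7 in Tconv cells. One R397W library lay in the range of wild-type Treg cells and the other below it, and neither overlapped Tconv. The rise was 8.19-fold (log2 difference 3.03, SE 0.38, adjusted p = 3.32e-05, limma) and passed with experiment as a term (log2 difference 2.90, adjusted p = 0.00925). Across the 7 peaks assigned to Il10, 5 were higher than Tconv, with log2 differences from 0.29 to 3.03 over the 7. The peak in the gene body, at chr1:131022556-131022956, showed a lower share of the wild-type level, with 44.5 and 50.6 in R397W Treg, 103 and 145 in control Treg, 110 and 106 in earlier Treg, and 14.8 and 12.7 in Tconv cells. It was chosen after its values were seen, and the R397W values overlapped no other group.

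Among transcription factors of the effector Treg list, Nfil3, Bhlhe40 and Maf had a highest peak that rose over Tconv, and Prdm1, Gata3 and Rora did not. Nfil3, a basic leucine zipper repressor, had at chr13:52976239-52976639 in its body 56.4 and 74.8 in R397W Treg, 142 and 218 in control Treg, 129 and 124 in earlier Treg, and 7.04 and 2.64 in Tconv cells. The peak was 12.2-fold above Tconv (log2 difference 3.61, SE 0.35, adjusted p = 4.47e-06, limma; 0.00331 with experiment as a term) and 2.68-fold below control (adjusted p = 0.016). Bhlhe40, a basic helix-loop-helix repressor, had at chr6:108688361-108688761, 21636 bp away, 53.0 and 45 in R397W Treg, 120 and 135 in control Treg, 139 and 99.1 in earlier Treg, and 2.11 and 6.59 in Tconv cells. Its log2 difference was 3.36 from Tconv cells (adjusted p = 1.20e-05, limma) and -1.36 from control Treg cells (adjusted p = 0.028). At both genes the R397W values overlapped neither wild-type Treg nor Tconv values. Maf encodes c-Maf, which drives Il10 transcription in several T cell types. Its peak at chr8:115726807-115727207, 20113 bp away, had 68.4 and 74.1 in R397W Treg, 91.0 and 138 in control Treg, 87.5 and 64.3 in earlier Treg, and 16.9 and 4.83 in Tconv cells. The R397W values lay inside the range of earlier Treg cells, and the rise over Tconv was 7.07-fold (log2 difference 2.82, adjusted p = 9.67e-05, limma; 0.0446 with experiment as a term). Prdm1, which encodes the repressor Blimp-1, had a single peak, at chr10:44429515-44429915 and 7459 bp from the gene, with 6.84 and 14.6 in R397W Treg, 17.0 and 24.2 in control Treg, 17.9 and 11.2 in earlier Treg, and 38.0 and 25.9 in Tconv cells. Both R397W values were below both Tconv values, and the log2 difference of -1.55 (95% interval -2.66 to -0.45) did not pass (adjusted p = 0.0615, limma). It did pass with a pseudocount of 5 (adjusted p = 0.0399), with no trend of the spread (0.0499) and without R397W library 2 (0.0327).

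Il1rl1 encodes ST2, the interleukin-33 receptor of tissue Treg cells. Its only peak, at chr1:40413053-40413453 in the gene body, had 17.1 and 13.2 in R397W Treg, 12.3 and 31.1 in control Treg, 17.9 and 25.6 in earlier Treg, and 0 in both Tconv libraries. With 3 reads per library taken as the limit that a count of 0 allows, R397W Treg cells were at least 8.82-fold higher (adjusted p = 5.41e-04, limma; 0.0305 with experiment as a term). Dusp4, which is listed with T cell receptor signalling, encodes a phosphatase of MAP kinases, and 3 of its 4 peaks rose. The peak at chr8:34755478-34755878, 51932 bp from the gene, had 68.4 and 74.1 in R397W Treg, 95.6 and 111 in control Treg, 96.4 and 95.8 in earlier Treg, and 2.82 and 5.27 in Tconv cells. That was a 14.8-fold rise (log2 difference 3.88, SE 0.33, adjusted p = 2.27e-06, limma; 0.00125 with experiment as a term). The R397W values lay below all wild-type Treg values and far above both Tconv values.

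**Figure D3:**
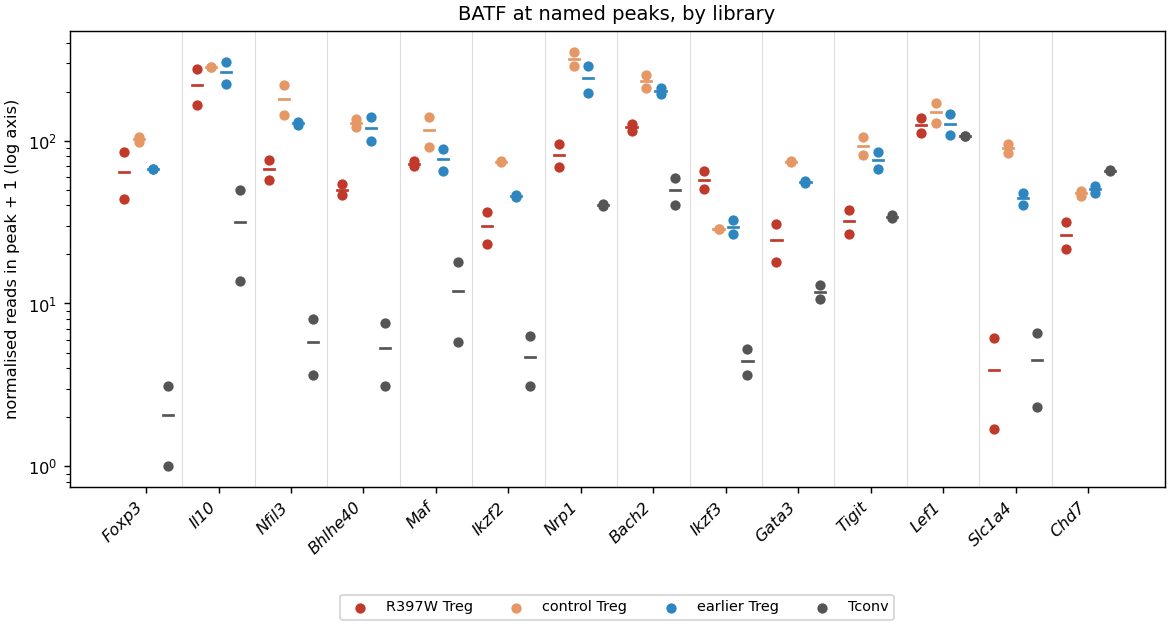
Deposited BATF value in each library, on a log2(value + 1) axis, at the peaks of named genes, with groups in the order R397W Treg, control Treg, earlier Treg and Tconv. R397W points lie near the wild-type Treg points at Foxp3 and Il10 and between them and Tconv at Nrp1.

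At other sites with more BATF in wild-type Treg than in Tconv cells, the difference of R397W Treg from Tconv cells did not pass the test. Tigit encodes an inhibitory receptor, and its highest peak, at chr16:43690157-43690557, had 25.6 and 36.7 in R397W Treg, 80.2 and 104 in control Treg, 66.1 and 84.0 in earlier Treg, and 33.8 and 32.5 in Tconv cells. R397W and Tconv values overlapped (log2 difference -0.11, 95% interval -0.73 to 0.52, adjusted p = 0.88, limma), while R397W was 2.91-fold below control (adjusted p = 0.00492). Of the 6 Tigit peaks, 4 were higher than Tconv, so the gene's sites did not move as one. Gata3, a zinc-finger factor of T helper and tissue Treg cells, had at chr2:9884232-9884632 in its body 17.1 and 29.8 in R397W Treg, 74.0 and 72.6 in control Treg, 54.2 and 55.8 in earlier Treg, and 12 and 9.67 in Tconv cells. The R397W values lay between, with no overlap, and the log2 difference was 1.00 from Tconv (adjusted p = 0.0938, limma; 0.0347 by edgeR and 0.0363 without R397W library 1) and -1.65 from control (adjusted p = 0.0106).

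Rora, a nuclear receptor gene of tissue Treg and innate lymphoid cells, held 12 peaks, of which 11 were higher than Tconv in control Treg, 10 in earlier Treg and 5 in R397W Treg cells. Over all peaks these shares were 23.8%, 19.8% and 12.1%. Its highest peak, at chr9:69034532-69034932 in the gene body, had 56.4 and 58.2 in R397W Treg and 56.3 and 80.0 in Tconv cells. There control Treg cells had 119 and 89.9, and earlier Treg cells had 111 and 178. R397W and Tconv values overlapped (log2 difference -0.22, adjusted p = 0.68, limma). R397W was below control at 6 of the 12, beside 7.97% of all peaks. One of these, at chr9:69339820-69340220, was chosen after its values were seen and had 1.71 and 4.85 in R397W Treg, 61.7 and 72.6 in control Treg, 41.1 and 53.2 in earlier Treg, and 2.11 and 2.20 in Tconv cells. Its R397W range enclosed both Tconv values. The 5 peaks with the largest deficit against control, among those higher than Tconv in both wild-type Treg groups, were near Ciapin1, Slc24a3, Col12a1, Nhej1 and Slc1a4. Ciapin1, a factor of iron-sulfur cluster assembly, had at chr8:94827987-94828387 in its body 0 in both R397W libraries, 37.0 and 34.6 in control Treg, 23.2 and 26.3 in earlier Treg, and 2.11 and 0 in Tconv cells. R397W was at least 9.93-fold below control there (adjusted p = 0.00164, limma). Slc1a4, a neutral amino acid transporter gene, had at chr11:20282578-20282978, 19402 bp away, 5.13 and 0.693 in R397W Treg, 94.1 and 83.0 in control Treg, 47.0 and 39.4 in earlier Treg, and 5.63 and 1.32 in Tconv cells. At these sites R397W and Tconv libraries overlapped and both wild-type Treg groups stood apart.

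Of 15 genes listed for central or naive T cells, 13 had peaks, and of their 77 peaks 15 (19.5%, against 12.1% of all peaks) were higher in R397W Treg than in Tconv cells and 0 lower (median log2 difference 0.43). Of the 15, Bach2 held 5, of its 14 peaks, and Foxp1 held 5, of its 18. Of the 77, 3 were higher with experiment as a term (3.90%, against 2.23% of all peaks). Bach2 encodes a repressor that competes with AP-1 factors. Its peak at chr4:32405118-32405518 in the gene body had 108 and 115 in R397W Treg, 122 and 166 in control Treg, 163 and 89.9 in earlier Treg, and 9.16 and 22 in Tconv cells. R397W values lay within the earlier Treg range and above both Tconv values, 7.35-fold on average (log2 difference 2.88, SE 0.34, adjusted p = 1.91e-05, limma; 0.00804 with experiment as a term). Foxp1, a forkhead factor of naive T cells, had at chr6:99050499-99050899 in its body 99.2 and 106 in R397W Treg, 191 and 259 in control Treg, 195 and 199 in earlier Treg, and 19.0 and 21.5 in Tconv cells. It was 4.88-fold above Tconv (adjusted p = 4.47e-06, limma) and below control (log2 difference -1.11, adjusted p = 0.00608). Lef1, an HMG-box factor of naive T cells, had 0 of 12 peaks called by limma, with 2 lower at an unadjusted p under 0.05, 1 lower by edgeR and none by DESeq2. Its highest peak, at chr3:131208535-131208935 in the gene body, had 137 and 110 in R397W Treg, 126 and 169 in control Treg, 107 and 144 in earlier Treg, and 106 in each Tconv library, and all groups were close (log2 difference 0.21, 95% interval -0.26 to 0.68, adjusted p = 0.644, limma).

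Signalling genes downstream of the T cell receptor and costimulation had 51 peaks at 19 of 25 listed genes, and 19 of the peaks (37.3%, against 12.1% of all peaks) were higher in R397W Treg than in Tconv cells. None was lower, and the median log2 difference was 0.48 against 0.01 over all peaks. With experiment as a term 4 of the 51 were higher (7.84%, against 2.23% of all peaks). Nfkb1, which encodes the p105 and p50 subunit of NF-kB, had at chr3:135665662-135666062 in its body 161 and 156 in R397W Treg, 217 and 256 in control Treg, 174 and 169 in earlier Treg, and 26.8 and 33.8 in Tconv cells. R397W Treg cells averaged 158 ± 3.4 and Tconv cells 30.3 ± 5.0 (SD of 2 libraries in each group), a 5.12-fold rise (adjusted p = 2.27e-06, limma; 0.00331 with experiment as a term). The replicates were close together in each group and the groups did not overlap. Malt1, the paracaspase of antigen receptor signalling, rose 4.16-fold at a peak 432 bp from the gene (adjusted p = 1.34e-05, limma; 0.0199 with experiment as a term). In the same list Lcp2, the adaptor SLP-76, had 3 of 6 peaks higher, and Nr4a2 and Egr2, factors induced by receptor signals, had 2 of 3 each.

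Foxp3 partner genes had 52 peaks at 14 of 15 listed genes, of which 7 were higher in R397W Treg than in Tconv cells and 0 lower. The median log2 difference of 0.04 was near the 0.01 of all peaks. The share higher, 13.5%, was near the 12.1% of all peaks. With experiment as a term 3 of the 52 were higher (5.77%, against 2.23% of all peaks). Within the list Ikzf3, which encodes the zinc-finger factor Aiolos, had 3 of 4 peaks higher. Its peak at chr11:98480033-98480433 had 49.6 and 63.8 in R397W Treg, 27.8 and 27.7 in control Treg, 31.6 and 25.6 in earlier Treg, and 4.23 and 2.64 in Tconv cells. The R397W values were the highest of all groups, 13.1-fold above Tconv (adjusted p = 2.58e-05, limma; 0.00573 with experiment as a term), while the log2 difference of 1.00 from control did not pass (adjusted p = 0.171). Bcl11b, a zinc-finger factor of T cell commitment, rose 5.61-fold at a peak 19256 bp away (adjusted p = 2.30e-04, limma; 0.00672 with experiment as a term). Smad3, a mediator of TGF-beta signals, rose 2.93-fold at a peak in its body (adjusted p = 7.35e-05, limma; 0.0351 with experiment as a term).

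Of 18 AP-1, BATF and IRF genes 13 had peaks. Of their 41 peaks 7 were higher in R397W Treg than in Tconv cells (17.1%, against 12.1% of all peaks) and 0 lower. Of the 7, Bach2 held 5, of its 14 peaks, and Fosl2 and Irf2 held 1 each. The Bach2 peaks are also counted in the list of central or naive T cells. The median log2 difference was 0.49. With experiment as a term 1 peak was higher (2.44%, against 2.23% of all peaks), and it was a Bach2 peak. No peak of Batf, with 3, or of Irf4, BATF's partner, with 3, was called by limma, with 1 higher each at an unadjusted p under 0.05, and by edgeR 1 Batf peak was higher and by DESeq2 none. The highest Batf peak, at chr12:85705520-85705920 in the gene body, had 37.6 and 43.7 in R397W Treg, 29.3 and 24.2 in control Treg, 32.7 and 38.1 in earlier Treg, and 27.5 and 19.8 in Tconv cells (log2 difference 0.77, adjusted p = 0.215, limma). T helper factors and cytokines had 22 peaks at 11 of 19 genes, with 3 higher and 0 lower. The share higher, 13.6%, was near the 12.1% of all peaks. With experiment as a term 0 of the 22 were higher, against 2.23% of all peaks. The highest peak at Ifng, the gene of interferon-gamma, had, at chr10:118461433-118461833 and 15739 bp away, 32.5 and 74.8 in R397W Treg, 60.2 and 41.5 in control Treg, 35.1 and 41.3 in earlier Treg, and 17.6 and 11.9 in Tconv cells (log2 difference 1.70, adjusted p = 0.00748, limma; 0.326 with experiment as a term). The Ifng call was lost without R397W library 2 (adjusted p = 0.132) and without Tconv library 2 (adjusted p = 0.0815). Il2, whose product sustains Treg cells, had at chr3:37173240-37173640, 47486 bp away, 6.84 and 15.2 in R397W Treg, 38.6 and 41.5 in control Treg, 29.2 and 26.3 in earlier Treg, and 17.6 and 18.0 in Tconv cells. The R397W values were below all others, and the test passed against control (log2 difference -1.86, adjusted p = 0.0174, limma) and not against Tconv (log2 difference -0.74, adjusted p = 0.377).

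**Figure D4:**
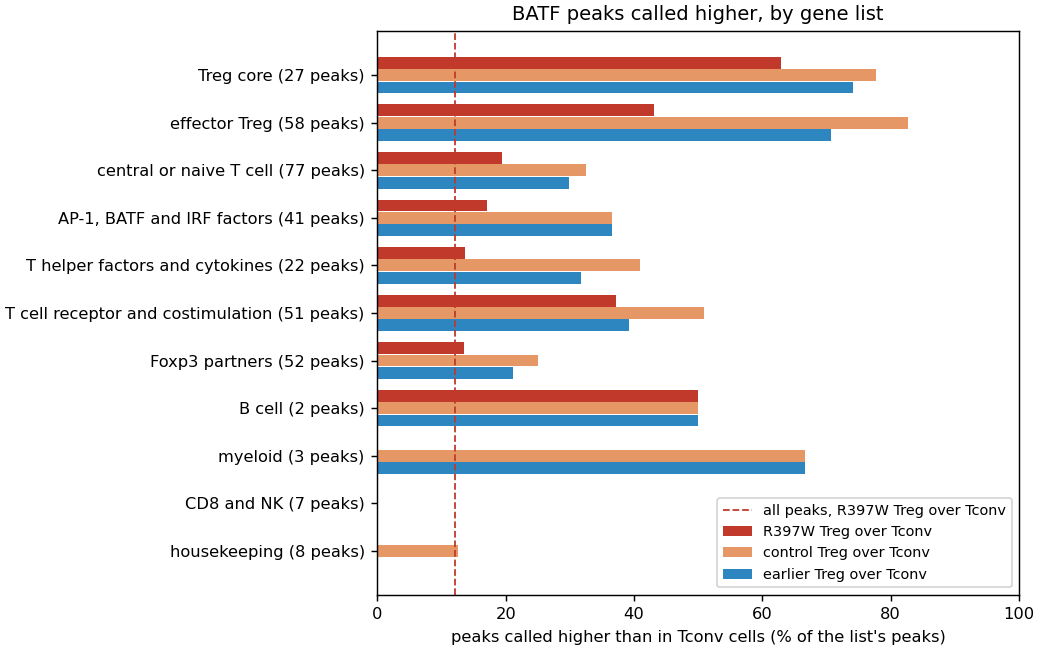
Share of the peaks of each gene list called higher than in Tconv cells, for R397W Treg, control Treg and earlier Treg cells. A dashed line marks the 12.1% of all peaks that were higher in R397W Treg cells. The R397W shares were 63.0% in the Treg core list, 43.1% in the effector Treg list and 13.5% in the Foxp3 partner list.

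Markers of other cell types were sparse among the BATF peaks. Of 8 B cell genes only Pax5 had a peak, and its 2 peaks summed to between 60.3 and 87.2 in the R397W libraries, 66.3 and 79.5 in the control libraries, 45.3 and 64.3 in the earlier Treg libraries, and 27.2 and 33.1 in the Tconv libraries. Cd79a and Ms4a1 had none, and 1 Pax5 peak was higher in R397W Treg than in Tconv cells (log2 difference 2.48, adjusted p = 3.34e-04, limma; 0.105 with experiment as a term). The 3 peaks of the myeloid genes Cebpa and Spi1 summed to between 31.9 and 32.5 in R397W, 83.0 and 92.5 in control, 67.6 and 99.4 in earlier Treg, and 37.3 and 44.4 in Tconv libraries, with none called. The 7 peaks at 4 of 9 CD8 and NK cell genes summed to between 99.8 and 125 in R397W, 105 and 128 in control, 105 and 117 in earlier Treg, and 174 and 175 in Tconv libraries, again with none called. Housekeeping genes had 8 peaks, none called. Over these 18 myeloid, CD8 and NK, and housekeeping peaks, 2 rises and 3 falls reached an unadjusted p under 0.05, 1 was lower by edgeR, and DESeq2 called none. The part of other cells in the rises was not tested. Binding tables give no expression, so the labelled cell types were not checked by their own markers.

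The largest rises among peaks above the median of mean value, and those that also passed with experiment as a term, lay mostly outside the lists. Runx2, a Runt-domain factor, had at chr17:44766293-44766693 in its body 46.2 and 49.2 in R397W Treg, 114 and 142 in control Treg, 95.2 and 70.2 in earlier Treg, and 4.23 and 0.439 in Tconv cells (17.7-fold, adjusted p = 1.20e-05, limma; 0.00925 with experiment as a term). Itpr1, an intracellular calcium channel gene, had at chr6:108448322-108448722 in its body 41.0 and 43.0 in R397W Treg, 55.5 and 55.3 in control Treg, 61.3 and 34.1 in earlier Treg, and 1.41 and 0 in Tconv cells. With 86 reads in R397W Treg against 2 in Tconv cells its ratio, of summed reads per summed depth factor as at Foxp3, was 78.4 (95% interval 21.0 to 657, counting error only), and its adjusted p was 7.82e-06 by limma and 0.00408 with experiment as a term. Prr5l, which encodes a partner of mTORC2, had at chr2:101819388-101819788 in its body values of 51.3 and 37.4 in R397W Treg, 26.2 and 31.1 in control Treg, 27.4 and 16.4 in earlier Treg, and 0 and 0.879 in Tconv cells. Both R397W values exceeded all wild-type Treg values (84 reads in R397W Treg against 2 in Tconv cells, the same kind of ratio being 76.5, 95% interval 20.5 to 642). Map4k4, a kinase gene, had at chr1:40053867-40054267, 27757 bp away, 20.5 and 22.2 in R397W Treg, 50.9 and 65.7 in control Treg, 49.4 and 32.8 in earlier Treg, and 0 in both Tconv libraries, at least 12.4-fold higher in R397W Treg than in Tconv cells (adjusted p = 1.95e-05, limma; 0.0104 with experiment as a term).

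The next genes were picked from those with the most rises, so repeated rises were fixed by that choice. Over all peaks 12.1% rose. Atxn1 and Itpr1 had 6 higher peaks each, of 12 and of 10. Nab1, a corepressor of EGR factors, had 5 of 6, Cd83, a surface protein of activated lymphocytes, had 4 of 5, and Tbc1d4, a Rab GTPase-activating protein gene, had 4 of 4. Wwox, which encodes a WW-domain oxidoreductase, had 4 of 15 higher and 1 lower. With experiment as a term 1 peak was higher at each of Atxn1, Itpr1, Nab1 and Wwox, 2 at Tbc1d4 and 0 at Cd83.

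Sites where IRF4 or Foxp3 also bound were set apart from the other peaks with the deposited IRF4 and Foxp3 tables, which come from other libraries. In the IRF4 data 1442 of 9134 peaks were higher in Treg than in Tconv cells (15.8%) and 766 were lower (8.39%). At the 928 BATF peaks on IRF4 peaks higher in Treg, 630 were higher in R397W Treg than in Tconv cells (67.9%) and 0 were lower by limma, edgeR and DESeq2, with 1 lower at an unadjusted p under 0.05, and the median log2 difference was 1.78. Over the same 928 the median log2 difference from Tconv was 3.23 in control Treg and 2.75 in earlier Treg cells, and that of R397W from control Treg cells was -1.28. At the 384 BATF peaks on IRF4 peaks lower in Treg, 1 was higher and 10 were lower, with a median of -0.27 in R397W against -0.72 in control and -0.67 in earlier Treg cells. Both directions of the IRF4 difference were thus met by R397W medians on the same side of 0 as those of wild-type Treg cells, and nearer to 0. Where the IRF4 table had a peak that did not differ, 242 of 2749 BATF peaks were higher (8.80%), and where it had no peak, 332 of 5912 (5.62%). Beside these class counts, 12.1% of all BATF peaks were higher in R397W Treg than in Tconv cells and 0.953% were lower.

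Foxp3 peaks split these sites into groups with close medians. Of the 928, the 380 that also overlapped a Foxp3 peak had 71.6% higher and a median log2 difference of 1.73, and the 548 without one had 65.3% and 1.87. Over all peaks, 452 of the 2215 on a Foxp3 peak were higher in R397W Treg than in Tconv cells (20.4%) against 753 of the 7758 without one (9.71%). In the Foxp3 data 958 of 6396 peaks were higher in effector than in central Treg cells (15%) and 688 were lower (10.8%). BATF peaks on the first kind numbered 493 and had 271 higher in R397W Treg cells (55.0%, median 1.45), and those on the second kind numbered 301 and had 7 higher (2.33%, median -0.04). Foxp3 binding was lower in Batf-deficient than in wild-type Treg cells at 250 of 6396 peaks (3.91%). Of the 171 BATF peaks on these, 121 were higher in R397W Treg than in Tconv cells (70.8%), with a median log2 difference of 1.77, beside 3.26 in control and 2.80 in earlier Treg cells. Beside the shares of these classes, 12.1% of all BATF peaks were higher in R397W Treg than in Tconv cells. The differences between these classes are given as counts and were not tested.

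**Figure D5:**
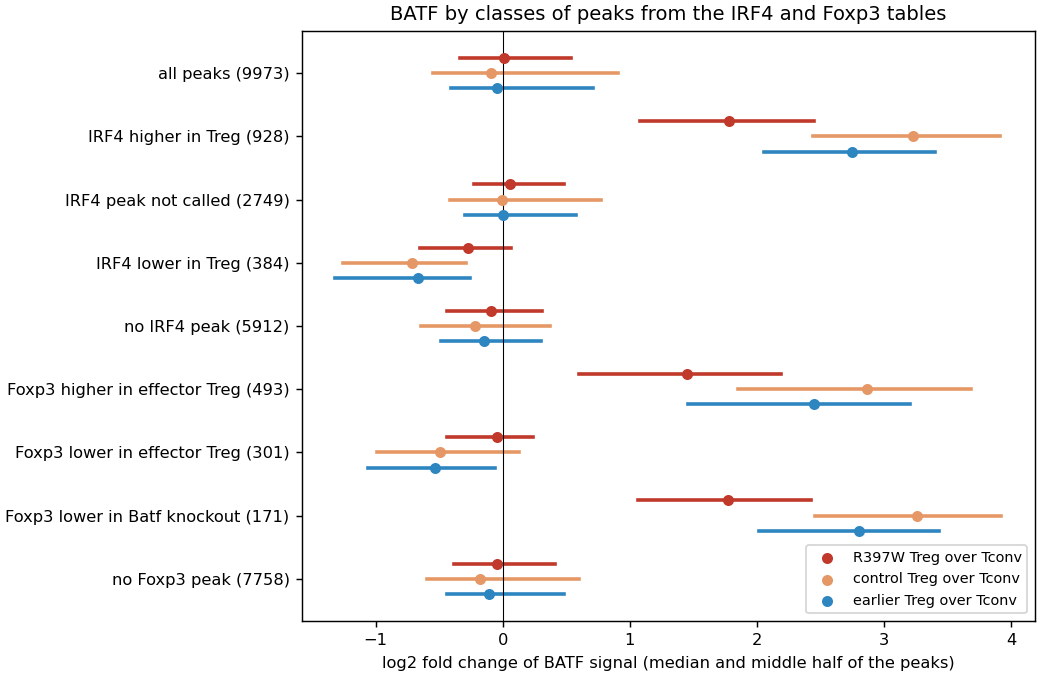
Median log2 difference from Tconv over classes of BATF peaks, for R397W Treg, control Treg and earlier Treg cells. At peaks on Treg-higher IRF4 sites the medians are 1.78 in R397W, 3.23 in control and 2.75 in earlier Treg cells.

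Few rises and many falls lay at promoters. Of the 1205 peaks that rose, 27 lay on a promoter window (2.24%), as did 39 of the 95 that fell (41.1%) and 30.1% of all peaks. Of the 4043 peaks in gene bodies off promoters 609 were higher (15.1%) and 35 lower, and of the 2932 between genes 569 were higher (19.4%) and 21 lower. The 39 promoter falls had a median value of 52.7 in R397W Treg and 106 in Tconv cells and a median log2 difference of -0.98. The 56 other falls had medians of 14.0 in R397W Treg and 48.1 in Tconv cells and a median log2 difference of -1.88. Over all 95 falls the median log2 difference from Tconv was -1.34 in R397W, -0.89 in control and -0.72 in earlier Treg cells. Of the 95, 47 were lower than Tconv in control and 23 in earlier Treg cells. The falls were chosen by calls against the same Tconv libraries, so these medians and counts are partly fixed by that choice. They are a description only, and whether wild-type Treg cells share the falls was not tested.

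The peak at chr4:8913187-8913587, 44938 bp from the chromatin remodeller gene Chd7, had 20.5 and 30.5 in R397W Treg, 47.8 and 45 in control Treg, 51.8 and 46.6 in earlier Treg, and 64.8 and 63.7 in Tconv cells, a 2.51-fold lower level in R397W Treg than in Tconv cells (log2 difference -1.33, SE 0.31, adjusted p = 0.00634, limma). The Chd7 call was lost without R397W library 1 (adjusted p = 0.0581) and without either Tconv library (adjusted p = 0.0516 and 0.0528). The peak at chr4:40777150-40777550, 19465 bp from the splicing factor gene Smu1, had 30.8 and 31.2 in R397W Treg, 29.3 and 27.7 in control Treg, 31.6 and 31.5 in earlier Treg, and 73.2 and 83.1 in Tconv cells. Its 3 Treg groups were at one level and the Tconv libraries stood above (adjusted p = 0.00853, limma; 0.112 without Tconv library 2). The 6 named falls, at Chd7, Smu1, Dock4, Ephb2, Tomm7 and Rnf32, all missed the threshold with experiment as a term. Peaks lower in both fits numbered 3, near Arhgap4, Serping1 and Smad4. Arhgap4, a GTPase-activating protein gene, had at chrX:73911078-73911478 values of 6.84 and 6.93 in R397W Treg, 27.8 and 27.7 in control Treg, 17.9 and 16.4 in earlier Treg, and 35.9 and 30.8 in Tconv cells, the lowest values being in R397W Treg cells (log2 difference -2.12, adjusted p = 0.00412, limma; 0.0305 with experiment as a term).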

How the data were processed

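BATF ChIP-seq of 8 libraries in 4 groups was analysed, taken from the second BATF table of the series. The deposited values are a signal, the reads per peak divided by a scale factor, and whole reads were recovered from all values within 0.01. Per the submitters' processing notes, tools named are Bowtie2 2.4.1, MACS2 2.2.7.1, DiffBind 3.12.0 and edgeR 3.38.4, with build mm10. The scale factors were within 1.81e-09% of DESeq2 size factors computed here. Columns were matched to samples by name. The numbers of the control columns differ from those in the sample titles, so these are known by group only. Input libraries were not used.

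Log2(value + 1) was fitted over all 8 libraries with limma 3.58.1 (R 4.3.3, empirical Bayes with a trend), 1 mean a group, and p-values were adjusted by Benjamini-Hochberg over 9973 peaks. Fold changes are on the scale of value + 1. The second fit added experiment as a term. edgeR 4.0.16 and DESeq2 1.42.0 on the recovered reads, other pseudocounts, scalings and filters, and leaving out each library were alternatives. Nothing in the sources used here says whether replicates came from separate animals, so p-values measure the spread between libraries, which may be technical. Depth was 144319 to 1009580 reads in peaks, and 3 reads are worth 3.60 in R397W Treg and 1.72 in Tconv libraries on average. Intervals of ratios are exact and cover counting error only.

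Peaks, 400 bp long in 99.9% of cases, were named by the nearest protein-coding gene of RefSeq GRCm38.p6 within 100000 bp of their midpoint (96.4% of peaks), which does not identify the gene they regulate. Peak coordinates were kept unchanged, with a start of either base 0 or base 1, so distances carry 1 bp of doubt. The IRF4 and Foxp3 classes used 1 bp of overlap and limma on the deposited signal of those tables. Named peaks were the highest peak of 29 fixed genes (25 with one), the 6 largest rises and falls above the median of mean value, up to 3 genes of each list by p, the 5 largest rises in both fits and the 5 largest deficits against control. Other peaks were chosen after their values were seen. Members and lists were chosen with earlier results of these data known. The fit was tested on simulated data. Sequences are RefSeq promoter windows. Python 3.11.15, pandas 2.3.3, numpy 2.4.6, scipy 1.17.1 and matplotlib 3.10.9 were used.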

Additional observations from a re-analysis of the deposited data

Results flagged for a closer look

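At 19 of the 67 named peaks R397W Treg cells differed from control Treg cells by the test of that difference (limma, adjusted p under 0.05), against 10.2% of all peaks, so that their differences from the shared Tconv libraries differ too. Of the 19, 5 were named for having the largest deficits against control, so their passing was fixed by that choice. The log2 difference of R397W minus control at these was -4.88 at Nhej1, -4.79 at Slc1a4, -5.01 at Slc24a3, -5.20 at Ciapin1 and -4.94 at Col12a1. Ciapin1 and Col12a1 had 0 reads in R397W Treg cells, so that those fitted values depend on the pseudocount, and the bounds are at least 9.93-fold and at least 8.49-fold lower. Slc24a3 had 1 read in R397W Treg and 36 in control Treg cells, a control to R397W ratio of summed reads per summed depth factor of 77.9 (95% interval 13.1 to 3160, counting error only).

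Among peaks of transcription factors the log2 difference was -1.42 at Nfil3, -1.36 at Bhlhe40, -1.65 at Gata3, -1.11 at Foxp1, -0.94 at the Bach2 peak 2335 bp from the gene, -1.03 at Smad3, -2.50 at Cebpa and -1.62 at Nr3c2, the mineralocorticoid receptor gene. Among receptors and cytokines it was -1.54 at Tigit, -1.97 at Nrp1, -2.01 at Itgav, an integrin chain, -0.89 at Cxcr5 and -1.86 at Il2. Satb1, a chromatin organiser of T cells, had the opposite sign, with 0.92. Its values were 71.8 and 68.6 in R397W Treg, 35.5 and 38.0 in control Treg, 51.8 and 60.4 in earlier Treg, and 47.9 and 63.7 in Tconv cells, at a peak 73442 bp from the gene.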

How the results depend on the processing

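The count of peaks higher in R397W Treg than in Tconv cells stayed within 1.5 times of 1205 under the edgeR, DESeq2, pseudocount, percentile, trend and scale factor alternatives, but was 783 with only the 4 libraries compared, 596 with quantile normalisation and 222 with experiment as a term. The count lower, 95, was 187 by edgeR, 57 by DESeq2, 51 with quantile normalisation, 163 with a pseudocount of 5 and 7 with experiment as a term. Leaving out 1 library gave 841 to 995 higher and 4 to 193 lower peaks. A replicate block over 6 libraries gave 1215 higher and 210 lower peaks, against 1171 and 177 in the same libraries without the block (chosen after seeing the data). The numbers did not pair the samples, since deviations of same-numbered libraries correlated at 0.094, -0.019 and -0.020 between groups.

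With experiment as a term the counts of 222 and 7 became 147 and 11 with a pseudocount of 5, 51 and 1 with quantile normalisation and 54 higher with no trend of the spread, and the lower count was 3 with a pseudocount of 0.5. Leaving out 1 library gave 4 to 311 higher and 0 to 5 lower. Within 10000 bp, 10 of 18 Treg core peaks (55.6%), 16 of 35 effector Treg peaks (45.7%) and 12 of 34 T cell receptor peaks (35.3%) were higher. The central or naive list had 11 of 48 (22.9%), and the Foxp3 partner list had 6 of 40 (15.0%). The AP-1, BATF and IRF list had 4 of 29 (13.8%), and the T helper list had 1 of 13 (7.69%). Over all peaks the share was 12.1%. Of 40 named peaks that passed, 22 passed under every alternative run and 18 missed with experiment as a term.

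Signs turned only at named peaks that had not passed. With experiment as a term the log2 difference was -0.25 at Icos, -0.83 at Nhej1, -1.84 at Slc24a3 and -0.030 at Lef1. At the highest Rora peak, chr9:69034532-69034932, the log2 difference in that fit was 0.22. With quantile normalisation it was -0.93 at Nhej1, -0.33 at Slc24a3 and -0.14 at Cebpa, and with a pseudocount of 0.5 it was -0.18 at Nhej1. As single libraries were left out it ran from -1.37 to 1.49 at Nhej1, from -1.21 to 0.64 at Slc1a4 and from -0.11 to 0.32 at Ccr7. It ran from -0.36 to 0.14 at Tigit and from -0.47 to 0.024 at that same Rora peak. The causes were not tested. With 2 libraries a group and 144319 reads in the shallowest, low peaks give wide intervals, and a difference that did not pass is not shown to be absent.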

Other observations

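The promoter printed for a fallen peak, that of Cdca8, and the promoters of Cep55, a midbody protein gene, and Ttk, the spindle checkpoint kinase gene, were chosen after their values were seen. The Cdca8 peak had 227 and 193 in R397W Treg, 160 and 166 in control Treg, 217 and 215 in earlier Treg, and 306 and 380 in Tconv cells (log2 difference from Tconv -0.70, adjusted p = 0.0119, limma; 0.717 with experiment as a term). Cep55 had 144 and 168 in R397W Treg, 122 and 125 in control Treg, 179 and 175 in earlier Treg, and 251 and 265 in Tconv cells (log2 difference -0.73, adjusted p = 0.0105, limma; 0.822 with experiment as a term). Ttk had 135 and 115 in R397W Treg, 160 and 180 in control Treg, 193 and 161 in earlier Treg, and 204 and 221 in Tconv cells (log2 difference -0.77, adjusted p = 0.00975, limma; 0.23 with experiment as a term). At all 3 every Treg library lay below both Tconv libraries. These are among the 95 falls, which numbered 13 and 4 without Tconv library 1 and 2.

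On the X chromosome, where Foxp3 lies, 16 of 349 peaks were higher in R397W Treg than in Tconv cells (4.58%, against 12.1% of all peaks) and 2 were lower. The groups compared also differed at the Y chromosome peak of Eif2s3y, with 0 reads in R397W Treg and 130 in Tconv cells. The part of the sex of the mice in the X chromosome share was not tested.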
